A study of Mus musculus with 9 samples.

Results

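Lungs given interleukin-4 (IL-4) by adenovirus were compared with lungs given IL-4d2, its splice variant, on 6 of the 9 arrays of the study. The 6 arrays are those whose titles name AdV-IL4 (3 arrays) or AdV-IL4d2 (3 arrays), and each array holds lung RNA of 1 mouse. The other 3 arrays, of mice given AdV-NULL, a virus with no cytokine gene, give the background level of every gene and add to the estimate of spread. All 9 mice were female C57BL/6, aged 14 weeks, and all were infected through the trachea with a replication-deficient adenovirus, so the controls carry the virus too. Lungs were taken 14 days after infection. AdV-IL4 encoded mouse IL-4 and AdV-IL4d2 encoded mouse IL-4d2. The sources used here do not state the promoter that drove the cytokine, the virus dose or the level of each protein. The comparison asks how the lung response to the variant differs from that to the full cytokine. Errors and p-values measure the spread among 3 mice per group.

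IL-4 is the main cytokine of type 2 immunity. It binds the receptor chain IL-4Rα, which pairs with the common gamma chain on blood cells or with IL-13Rα1 on many other cells, and the paired chains switch on the kinases JAK1, JAK3 and TYK2 and the transcription factor STAT6. In lung macrophages this pathway turns on the alternatively activated programme, with arginase and chitinase-like proteins, and in airway epithelium it favours mucus-producing goblet cells. IL-4d2 is made when an exon of the IL-4 transcript is skipped.

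Signals below are MAS5 intensities on a linear scale, and the array medians ran from 156 to 170.7. Differences are log2(signal + 16) values of IL-4 minus IL-4d2, with standard errors of the fit, and a positive value means a higher level with IL-4. A gene was called where limma's adjusted p lay under 0.05 over all 45037 probe sets that are not array controls. In whole lung RNA, fewer cells of a type and less RNA per cell cannot be told apart.

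Of the 45037 probe sets, 244 were called (0.542%), 138 higher and 106 lower with IL-4. At least 2-fold differences accounted for 70 of the higher and 27 of the lower calls. Among 18193 genes with a symbol of their own, 92 were higher (0.506%) and 66 were lower (0.363%). The arrays of the groups did not overlap for any of the 244 probe sets, against 17.1% of all probe sets that did not overlap. The higher calls lay a median of 1.03 above IL-4d2 and 0.98 above control, while IL-4d2 lay −0.09 from control. The lower calls lay −0.72 from IL-4d2 and −0.76 from control, with IL-4d2 at −0.03 from control. These medians run over genes that went both ways with IL-4d2, such as Eln, 1.22 above control, and Fos, at −2.09 from it. Both differences from control share the same 3 control arrays. The probe sets were also picked for their difference between IL-4 and IL-4d2 on these same arrays. The medians therefore do not show that IL-4d2 left them at control level.

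**Figure D1:**
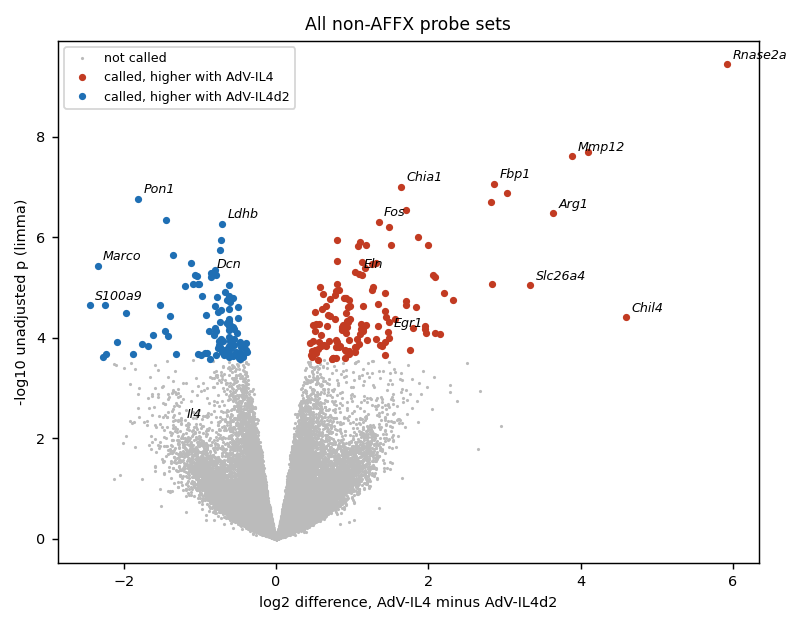
Log2 difference between AdV-IL4 and AdV-IL4d2 lungs (x axis) against −log10 of the unadjusted limma p (y axis), 1 point per probe set, 45037 in all. Red points are the 138 called higher and blue points the 106 called lower with AdV-IL4, with Rnase2a at 5.92 at the far right and S100a9 at −2.45 on the left.

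The number of calls leaned on single arrays. It was 46 without IL-4d2 mouse 3, 94 without IL-4d2 mouse 1, 95 without IL-4d2 mouse 2, 103 without IL-4 mouse 2, 129 without IL-4 mouse 3 and 139 without IL-4 mouse 1. Of 61 called genes followed through 9 fits that each left out 1 array, 16 kept the call in every fit: Rnase2a, Mmp12, Arg1, Fbp1, Ear3, Slc5a1, Chia1, Itgax, Tnc, Eln, Fos, Bhlhe40, Marco, Pon1, Fgfbp1 and Bpgm. Of these 16, Rnase2a, Mmp12, Arg1, Fbp1, Slc5a1, Chia1 and Pon1 also kept it under each of the 11 other alternatives. A variance prior without trend, which left 26 calls in all, ended the calls of Ear3, Itgax, Eln, Fos, Bhlhe40, Marco, Fgfbp1 and Bpgm. That prior left 6 of 11 calls in the alternatively activated macrophage list, 1 of 4 type 2 chemokines and 2 of 5 matrix genes. Of the club cell, detoxification, neutrophil, elastic fibre and immediate early calls it left 0. The array controls also moved with the groups. Poly-A control transcripts, bacterial RNAs added to the lung RNA, were 1.08 log2 units higher on the IL-4 than the IL-4d2 arrays, and hybridisation controls 0.54 higher (exact permutation p = 0.1 each, the smallest that 3 against 3 arrays allow). The ratio of 3′ to 5′ signal, which rises as RNA breaks down, averaged 3.23 for Actb with IL-4 and 2.58 with IL-4d2, and 1.71 and 1.46 for Gapdh (exact p = 0.2 each), beside 2.65 and 1.28 in controls. The 18S ribosomal RNA probe sets differed by −0.57 (exact p = 0.2). Scaled to the poly-A controls, the median of all probe sets fell by 0.94 and 51 probe sets were higher and 26571 lower with IL-4. Scaled to the hybridisation controls, 83 were higher and 5493 lower. Poly-A scaling ended the calls of Itgax, Tnc, Eln, Fos and Bhlhe40 among the 16. It left 6 called genes higher of the 11 in the alternatively activated macrophage list, 1 of 4 type 2 chemokines, 1 of 5 matrix genes and 0 of 5 immediate early genes. Calls, directions and list medians below are therefore relative to the typical probe set of each array, as deposited. Heart muscle genes were lowest on IL-4 mouse 2, and without that array and control mouse 1 together 78 probe sets were called. The part of these measures in the calls was not tested.

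Il4 itself read higher in the IL-4d2 lungs. Its signals were 379, 301 and 335 with IL-4, 1172, 944 and 499 with IL-4d2, and 43.1, 15.8 and 71.6 with control virus. The cytokine groups did not overlap, and both lay above every control lung. The difference of −1.25 ± 0.36 did not pass the test (limma adjusted p = 0.185; exact permutation p = 0.1). It ran from −1.60 to −0.996 with 1 array left out, and under poly-A scaling it was −2.28 (adjusted p = 0.000387). Which exons this probe set covers is not stated in the sources used here, and it may detect the RNAs of the 2 vectors with unequal strength.

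The receptor and kinases of IL-4 gave no call on the deposited scale. Il4ra read 579, 706 and 559 with IL-4 and 751, 667 and 582 with IL-4d2 (difference −0.11, 95% interval −0.39 to 0.16). Stat6, the pathway's transcription factor, differed by −0.05 (−0.21 to 0.11), Jak1 by 0.10 (−0.09 to 0.29) and Il13ra1 by 0.13 (−0.19 to 0.45). Under hybridisation control scaling Il4ra (−0.64, adjusted p = 0.0493) and Stat6 (−0.58, adjusted p = 0.0404) were called lower. Under poly-A scaling Il4ra (−1.16), Stat6 (−1.12), Jak1 (−0.97) and Il13ra1 (−0.93) were all called lower (adjusted p 0.000426 to 0.00306), and Jak1 and Il13ra1 turn sign under either. Of the 17 measured genes of the IL-4 pathway list, 1 was called, against 0.506% of all genes. That gene was Cish, a feedback inhibitor of cytokine receptors that STAT factors switch on. It read 2124, 2421 and 2217 with IL-4, 1207, 971 and 1399 with IL-4d2 and 1279, 1597 and 1599 in control lungs (0.92 ± 0.13, adjusted p = 0.0109). Without IL-4 mouse 2 it was 0.87 (adjusted p = 0.0512), and under poly-A scaling −0.14.

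Genes of alternatively activated macrophages were higher with IL-4 than with IL-4d2. Of 26 measured, 11 rose and 0 fell, against 0.506% of all genes called higher, with a median difference of 0.76 beside −0.008 over all genes. The list was chosen with earlier results of these data known. Leaving out any 1 of the 6 cytokine arrays left 4 to 6 of them called: 6 without IL-4 mouse 1, 5 without IL-4 mouse 2 or 3, 4 without IL-4d2 mouse 1 or 3 and 6 without IL-4d2 mouse 2.

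Arg1, the arginase that breaks down arginine in these macrophages, read 1351, 917 and 717 with IL-4. The IL-4d2 lungs read 101, 78.1 and 28.3 and the control lungs 107, 94.2 and 69.0. All 3 IL-4 lungs lay above all 6 others, a 12.4-fold difference (3.63 ± 0.35, adjusted p = 0.0015). Mmp12, the macrophage elastase, read 5404, 4386 and 3583 with IL-4 and 291, 356 and 217 with IL-4d2, against 174, 395 and 150 in controls. That was 14.8-fold (3.89 ± 0.30, adjusted p = 0.000361). The IL-4d2 and control lungs overlapped for both genes.

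The chitinase-like proteins followed. Chil4 read 20940, 3672 and 5574 with IL-4 and 145, 606 and 288 with IL-4d2, with 697, 1816 and 270 in controls. The IL-4 lungs differed among themselves by more than 5-fold, and the difference of 4.60 ± 0.72 (adjusted p = 0.0177) lost its call when IL-4 mice 1 or 3, or IL-4d2 mice 1 or 3, were left out in turn (3.86 to 4.82, adjusted p 0.0518 to 0.087). Chil3, among the brightest signals on the arrays, read 40190, 39750 and 35110 with IL-4 against 10810, 18510 and 16530 with IL-4d2, and 12500, 21650 and 10850 in controls (1.36 ± 0.24, adjusted p = 0.0351). Its call was lost without any 1 of the 6 cytokine arrays (1.13 to 1.52, adjusted p 0.0627 to 0.119). Chia1, an active chitinase of the lung, had the tightest groups: 5963, 5625 and 5800 with IL-4, 1552, 2054 and 1990 with IL-4d2 and 1677, 2320 and 2473 in controls (1.64 ± 0.14, adjusted p = 0.000879).

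Clec7a, the beta-glucan receptor dectin-1, read 8098, 9108 and 8306 with IL-4 and 2162, 3480 and 3115 with IL-4d2, with controls at 1885, 4099 and 2146 (1.56 ± 0.25, adjusted p = 0.0183). Leaving out any IL-4 array, or that of IL-4d2 mice 1 or 3, ended the call (1.36 to 1.63, adjusted p 0.0527 to 0.0797). Retnla, a small secreted protein of the same programme, read 44510, 40230 and 36810 with IL-4 and 20980, 24260 and 21480 with IL-4d2. The groups did not overlap, but the difference of 0.86 did not pass the test (adjusted p = 0.231). Mrc1, the mannose receptor, differed by 0.66 (adjusted p = 0.059). Under poly-A scaling both turn sign, to −0.21 and −0.41.

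Itgax, the CD11c integrin of macrophages and dendritic cells, read 3225, 3441 and 2805 with IL-4, 966, 1355 and 1062 with IL-4d2 and 916, 1301 and 932 in controls (1.48 ± 0.15, adjusted p = 0.002). Fbp1, a gluconeogenic enzyme, read 724, 1041 and 1403 with IL-4, 110, 155 and 119 with IL-4d2 and 114, 125 and 173 in controls (2.86 ± 0.24, adjusted p = 0.000879). Each IL-4 lung lay above every other lung for both genes.

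Members of the eosinophil-associated ribonuclease family gave the largest difference. Rnase2a read 2363, 3325 and 2639 with IL-4. It read 40.6, 22.03 and 28.4 with IL-4d2 and 59.0, 80.9 and 24.1 in controls, below the array median on all 3 IL-4d2 arrays. The difference was 5.92 ± 0.31 (adjusted p = 1.62e-05) and lay between 5.78 and 6.07 with 1 array left out. Its fold of 60.4 rests on a dim denominator and on the added 16. Ear3 read 1730, 2082 and 1565 with IL-4, 305, 639 and 415 with IL-4d2 and 696, 1004 and 888 in controls (2.0 ± 0.22, adjusted p = 0.00297), so here the IL-4d2 lungs were all below the controls. Rnase2b differed by 1.95 (adjusted p = 0.0214), and its call was lost without any 1 of the 6 cytokine arrays (adjusted p 0.055 to 0.0875). These genes are near-identical copies, and probe sets may read more than 1 of them.

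Of 11 measured genes in the eosinophil list, 1 was called, against 0.506% of all genes. It was Rnase2a, which is also counted in the alternatively activated macrophage list. At an unadjusted p under 0.05, 2 were higher, Rnase2a among them. The other was Alox15, a lipoxygenase also found in macrophages, at 1.23 (adjusted p = 0.333; 95% interval 0.19 to 2.26). Epx, the eosinophil peroxidase, read 52.1, 8.56 and 29.3 with IL-4 and 46.8, 52.4 and 7.496 with IL-4d2. Prg2, the major basic protein, read 10.5, 27.1 and 68.5 with IL-4 and 33.1, 53.9 and 24.6 with IL-4d2. Epx, Prg2, Prg3, Ccr3 and Il5ra all lay below the array median on every array of both groups, as did 6 of the 11 in all, and only 4 intervals lay within 1 log2 unit of 0.

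**Figure D2:**
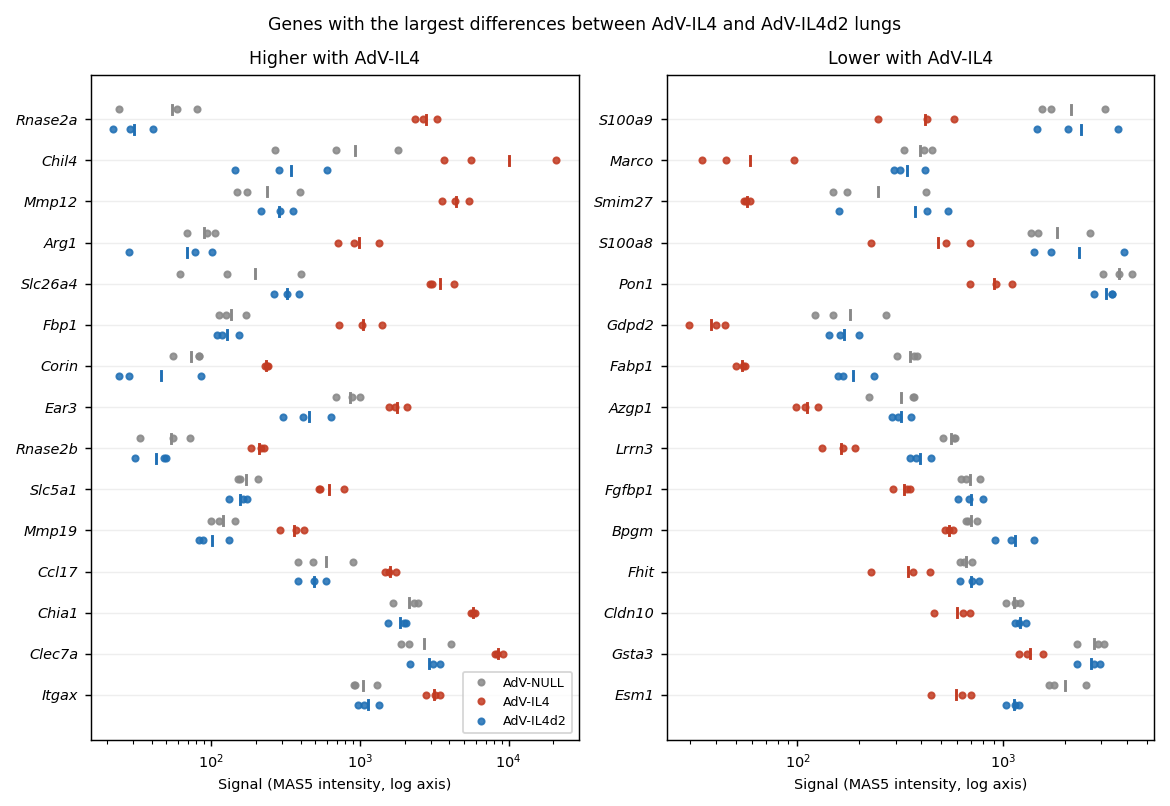
Signals (x axis, MAS5 intensity, log axis) of the 15 genes called higher and the 15 called lower with AdV-IL4 by the largest differences, with 3 points per group and a tick at the mean. For Rnase2a the 3 AdV-IL4 lungs read 2363 to 3325 and the 3 AdV-IL4d2 lungs 22.03 to 40.6.

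Some genes of the type 2 chemokine list were also higher with IL-4. Of 10 measured, 4 rose and 0 fell, against 0.506% of all genes called higher, with a median difference of 0.96. The 4 were Ccl17, Ccl24, Ccl9 and Ccl6. Ccl24, also counted in the alternatively activated macrophage list, was dim, at 62.4, 112.5 and 91.4 with IL-4 and 12.8, 10.6 and 8.32 with IL-4d2. It lay below the array median on every cytokine array. The count was 2 without IL-4 mouse 1, 1 without IL-4 mouse 3 and 1 without IL-4d2 mouse 1, and 0 without the arrays of IL-4 mouse 2 and of IL-4d2 mice 2 and 3, each in turn. Ccl17, a CCR4 ligand that attracts T helper 2 cells, read 1488, 1580 and 1748 with IL-4, 593, 492 and 383 with IL-4d2 and 487, 901 and 384 in controls (1.70 ± 0.25, adjusted p = 0.0127). The call ended when IL-4 mice 2 or 3, or IL-4d2 mice 2 or 3, were left out in turn (1.54 to 1.71, adjusted p 0.0512 to 0.0797). Ccl9, a macrophage chemokine, lay in order: 697, 1075 and 590 in controls, 1760, 1644 and 1371 with IL-4d2 and 6062, 4612 and 3145 with IL-4 (1.48 ± 0.24, adjusted p = 0.0201). Its call was lost when IL-4 mice 1 or 2, or each IL-4d2 mouse in turn, were left out (1.26 to 1.56, adjusted p 0.0561 to 0.108), and a dimmer probe set differed by 0.75 without passing. Ccl8, which also attracts type 2 cells, and Ccl11, eotaxin, did not pass (0.64, adjusted p = 0.527, and 1.16, adjusted p = 0.173). Under poly-A scaling Ccl8 (−0.43) and the dimmer Ccl9 probe set (−0.31) turn sign.

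STAT6 favours the element TTCNNNNGAA, with N any base, over the TTCNNNGAA preferred by other STAT factors, and promoter windows show where such letters stand. The 250 bases before each RefSeq gene start (GRCm38.p6) were searched for both patterns, which read the same on either strand, so 1 search covers both. TTCNNNNGAA stood in 5.85% of 32851 windows, in 9 of 101 windows (8.91%) of 74 genes that were higher with IL-4, and in 4.35% of 69 windows of 55 genes that were lower. TTCNNNGAA stood in 7.02%, 6.93% and 5.8%. The 9 windows with the first pattern include overlapping windows of Clec7a that hold the same site. These shares are given as counts and were not tested. Windows of Ccl17, Itgax and Il33, all called higher, show what the matches look like, in capitals, 5′ to 3′ with the gene start at the right. Ccl17 (chr8:94810203-94810452, plus strand) holds the first pattern 154 bases and the second 99 bases before the start. Itgax (chr7:128129300-128129549, plus strand) holds the first 127 bases before it, and Il33 (chr19:29924863-29925112, plus strand) 36 bases before the start of 1 of its 2 windows.
Ccl17: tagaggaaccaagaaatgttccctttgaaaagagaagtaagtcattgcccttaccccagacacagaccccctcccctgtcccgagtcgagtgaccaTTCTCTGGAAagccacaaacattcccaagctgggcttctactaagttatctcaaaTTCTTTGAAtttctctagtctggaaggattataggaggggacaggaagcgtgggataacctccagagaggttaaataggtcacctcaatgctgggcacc
Itgax: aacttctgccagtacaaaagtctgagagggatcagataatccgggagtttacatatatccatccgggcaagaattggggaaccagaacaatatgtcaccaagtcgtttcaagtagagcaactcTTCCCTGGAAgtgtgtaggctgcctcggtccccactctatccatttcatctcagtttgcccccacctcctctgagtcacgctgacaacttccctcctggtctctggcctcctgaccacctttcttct
Il33: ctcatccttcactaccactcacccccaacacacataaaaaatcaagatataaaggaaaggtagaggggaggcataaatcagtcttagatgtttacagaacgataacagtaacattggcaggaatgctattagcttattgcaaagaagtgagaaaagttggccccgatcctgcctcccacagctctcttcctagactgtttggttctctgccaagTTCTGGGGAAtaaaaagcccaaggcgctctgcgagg
Il33, an alarm cytokine of epithelium, read 7477, 6442 and 6567 with IL-4, 4433, 3818 and 3735 with IL-4d2 and 2352, 3242 and 2487 in controls (0.77 ± 0.12, adjusted p = 0.0185), so the IL-4d2 lungs lay between the others. Leaving out each IL-4 mouse, or IL-4d2 mice 2 or 3, ended the call (0.71 to 0.81, adjusted p 0.0512 to 0.107), and under poly-A scaling it was −0.30. A match is only letters in a window.

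An anion and a sugar transporter of epithelium were higher with IL-4, while the mucins varied among the IL-4 mice. Slc26a4, the anion exchanger pendrin, read 4289, 3071 and 2957 with IL-4 and 388, 323 and 265 with IL-4d2, with 61.8, 403 and 128 in controls (3.33 ± 0.45, adjusted p = 0.0082; 3.20 and 0.0634 without IL-4d2 mouse 3). Slc5a1, the sodium-glucose cotransporter SGLT1, read 782, 542 and 536 with IL-4, 164, 176 and 133 with IL-4d2 and 152, 207 and 156 in controls (1.86 ± 0.20, adjusted p = 0.00295). These were the 2 called among 21 measured genes of the goblet cell list, whose median was 0.41, against 0.506% of all genes called higher. Muc5ac, the main inducible airway mucin, read 2773, 498 and 1223 with IL-4 and 192, 221 and 60.7 with IL-4d2, with 72.7, 873 and 49.5 in controls. No IL-4d2 lung reached an IL-4 lung, but 1 control lung read above IL-4 mouse 2, and the difference of 2.96 had an interval from 1.05 to 4.87 (adjusted p = 0.191). Clca1, a secreted goblet cell protein, read 46160, 16950 and 25250 with IL-4 and 4629, 4656 and 3498 with IL-4d2 (2.67, adjusted p = 0.0985). Both passed under hybridisation control scaling (2.45, adjusted p = 0.0424, for Muc5ac and 2.13, adjusted p = 0.031, for Clca1) and under poly-A scaling (1.94, adjusted p = 0.026, and 1.597, adjusted p = 0.0141). Both differences were smaller there than as deposited, and these scalings called 5576 and 26622 probe sets in all. The adjusted p depends on that number, so these passes add no weight to the 2 differences. IL-4 mouse 2 was the lowest of its group for Muc5ac, Clca1 and Agr2, a chaperone of mucin folding.

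Some genes of club cells and of detoxification were lower with IL-4. Of 18 measured club cell genes 4 fell and 0 rose (median −0.30), and of 26 detoxification genes 4 fell and 0 rose (median −0.32), against 0.363% of all genes. Below 0 lay 14 of the 18 and 19 of the 26. At an unadjusted p under 0.05, 7 club cell genes were lower and 1 higher, and 14 detoxification genes were lower and 3 higher. Gsta3 and Cyp4b1 are in both lists. Ciliated cell genes lay beside them: all 23 measured were below 0 (median −0.42), with 1 called lower and 11 lower at an unadjusted p under 0.05. The mean log2 level was lowest on the array of IL-4 mouse 2 for both cell types, at 12.73 for club cells, against 13.18 to 13.39 on the other 5 cytokine arrays, and 8.94 for ciliated cells, against 9.46 to 9.87. The club cell level of IL-4 mouse 1, 13.35, lay within the IL-4d2 range of 13.27 to 13.39. The part of IL-4 mouse 2 in the calls was not tested. Without IL-4d2 mouse 3 the club cell and detoxification counts of calls were both 0, and without IL-4d2 mouse 2 they were 1 and 0. They were 2 and 2 without IL-4 mouse 2 and again without IL-4d2 mouse 1. Without IL-4 mouse 3 the detoxification count was 2. Cldn10, a claudin of club cells, read 637, 462 and 690 with IL-4, 1139, 1196 and 1291 with IL-4d2 and 1210, 1030 and 1143 in controls (−1.02 ± 0.14, adjusted p = 0.0082; −0.97 and 0.0634 without IL-4d2 mouse 3). Gsta3, a glutathione S-transferase, read 1203, 1563 and 1316 with IL-4, 2289, 2789 and 2981 with IL-4d2 and 2906, 2293 and 3097 in controls (−0.97 ± 0.14, adjusted p = 0.0106). The call ended without IL-4d2 mice 2 or 3 (−0.94 to −0.89, adjusted p 0.054 to 0.0692). A dimmer Gsta3 probe set differed by −0.57 and did not pass (adjusted p = 0.106). Of 20 glutathione S-transferases, a family picked after the values were seen, 5 fell and 0 rose, against 0.363% of all genes called lower. Among them Gsta3, Gstm1 and Gstm2 are already counted in the called detoxification genes.

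Pon1, a paraoxonase that hydrolyses organophosphates, read 924, 691 and 1109 with IL-4. It read 2771, 3404 and 3391 with IL-4d2 and 4261, 3056 and 3692 in controls (−1.81 ± 0.16, adjusted p = 0.00108), so no IL-4 lung came near the rest. Fgfbp1, a carrier of fibroblast growth factors, read 342, 292 and 351 with IL-4, 606, 683 and 802 with IL-4d2 and 774, 624 and 665 in controls (−1.04 ± 0.13, adjusted p = 0.00664). Bpgm, which makes the haemoglobin regulator bisphosphoglycerate in red cells, read 568, 520 and 548 with IL-4 and 678, 662 and 747 in controls, but 1099, 918 and 1410 with IL-4d2 (−1.02 ± 0.14, adjusted p = 0.0082), above both other groups. Its 2 dimmer probe sets had the same sign and did not pass (−0.82, adjusted p = 0.0744, and −0.73, adjusted p = 0.0651). IL-4d2 differed from control by 0.68 (adjusted p = 0.0615). Without IL-4 mouse 2 and control mouse 1 together Bpgm lost its call. It was the 1 gene called of 7 measured red blood cell genes, against 0.363% of all genes called lower. The median of these 7 genes was −0.56. Their summed signal ran from 1667 to 2271 on the IL-4 arrays, 2893 to 4533 on the IL-4d2 arrays and 1719 to 2410 on the control arrays, and its part in the difference was not tested.

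Genes of resident alveolar macrophages split. Of 16 measured, 4 rose and 2 fell, against 0.506% and 0.363% of all genes. Chil3, 1 of the 4, is also counted in the alternatively activated macrophage list. The counts were 2 and 5 under hybridisation control scaling, 0 and 10 under poly-A scaling and 0 and 1 under a variance prior without trend. Marco, a scavenger receptor of these cells, read 34.3, 96.2 and 44.7 with IL-4, 316, 418 and 295 with IL-4d2 and 411, 449 and 330 in controls (−2.34 ± 0.29, adjusted p = 0.00545). The IL-4 lungs were below the array median on all 3 arrays. Fabp1, a fatty acid binding protein, read 55.4, 50.3 and 54.4 with IL-4 and 158, 167 and 236 with IL-4d2, with 305, 369 and 382 in controls (−1.53 ± 0.22, adjusted p = 0.0127; −1.36 and 0.0821 without IL-4d2 mouse 3). Its other probe set, below the array median on every cytokine array, differed by −0.50 and did not pass (adjusted p = 0.525). Olr1, a receptor of oxidised lipoprotein, went the other way, at 750, 786 and 606 with IL-4, 184, 302 and 292 with IL-4d2 and 265, 381 and 329 in controls (1.43 ± 0.20, adjusted p = 0.0101; 1.36 and 0.0506 without IL-4 mouse 2). Siglecf, Pparg and Car4 of the same list did not pass (−0.36, −0.14 and 0.20), and Car4 turns to −0.34 and −0.87 under hybridisation control and poly-A scaling. The count of 4 higher was 2 when IL-4 mouse 1, or IL-4d2 mice 1 or 3, were left out in turn and 1 without IL-4 mouse 2, and the 2 lower became 1 without IL-4d2 mouse 3.

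S100a9, a calcium-binding protein of neutrophils and monocytes, read 247, 427 and 579 with IL-4, 2078, 1458 and 3643 with IL-4d2 and 1712, 3151 and 1554 in controls (−2.45 ± 0.36, adjusted p = 0.0127). Leaving out IL-4 mouse 2, or IL-4d2 mice 1 or 3, ended the call (−2.50 to −2.10, adjusted p 0.0502 to 0.0692). Its partner S100a8 differed by −2.23 (adjusted p = 0.0426) and lost its call without any 1 of 8 arrays, every one but control mouse 2 (adjusted p 0.0523 to 0.152). These were the 2 called of 17 measured neutrophil genes, against 0.363% of all genes called lower, while 2 others were higher at an unadjusted p under 0.05. The count was 0 in each of the 3 fits in which S100a9 lost its call. It was 1 in turn without control mice 1 and 3, IL-4 mice 1 and 3, and the IL-4d2 mouse numbered 2.

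Eln, which encodes elastin, read 4403, 4586 and 4547 with IL-4, 1920, 2297 and 2153 with IL-4d2 and 922, 703 and 1121 in controls. No group overlapped another, and the difference between the cytokines was 1.08 ± 0.14 (adjusted p = 0.00658). IL-4d2 exceeded control by 1.22 (adjusted p = 0.00147) and IL-4 by 2.31 (adjusted p = 1.23e-05), tests that share the control arrays. A dimmer Eln probe set read 40.3, 149.6 and 229 with IL-4 and 150.3, 17.2 and 16.4 with IL-4d2, so the groups overlapped. It lay below the array median on 2 IL-4 and all 3 IL-4d2 arrays and did not pass (1.23, limma adjusted p = 0.527). There IL-4d2 lay 0.07 from control (limma adjusted p = 0.987). Under either control scaling Eln lost its call. In the elastic fibre and crosslinking list, 2 of 17 genes were called higher, Eln and Ltbp2, and 0 lower. Over all genes 0.506% were called higher and 0.363% lower. The list had a median of −0.02 and 9 members below 0. The count was 1 without IL-4 mouse 2, 1 when IL-4d2 mice 1 or 3 were left out in turn, 3 without IL-4 mouse 1 and 0 under either control scaling. Tnc, tenascin C, read 739, 742 and 711 with IL-4, 333, 315 and 291 with IL-4d2 and 308, 421 and 332 in controls (1.18 ± 0.13, adjusted p = 0.00297).

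Of 30 measured genes in the matrix and fibrosis list 5 were called higher and 0 lower, against 0.506% and 0.363% of all genes, with a median of 0.23. Mmp12, 1 of the 5, is also counted in the alternatively activated macrophage list. The count was 3 without any 1 IL-4 mouse and 2 without IL-4d2 mouse 2 or 3. Col1a1, a chain of type I collagen, read 1926, 1742 and 1801 with IL-4 and 1166, 917 and 781 with IL-4d2, with 630, 809 and 789 in controls (0.94 ± 0.14, adjusted p = 0.0131). Its other probe set differed by −0.17 (adjusted p = 0.815), the first was −0.13 under poly-A scaling, and the call ended when IL-4 mice 1 or 3, or IL-4d2 mice 2 or 3, were left out in turn (0.81 to 0.95, adjusted p 0.0522 to 0.0692). Dcn, the proteoglycan decorin, is counted in the smooth muscle and fibroblast list, where it was the 1 of 22 called lower: 2275, 2683 and 2779 with IL-4, 5119, 4037 and 4920 with IL-4d2 and 6192, 5492 and 5596 in controls (−0.86 ± 0.11, adjusted p = 0.00658; −0.82 and 0.0519 without IL-4d2 mouse 3).

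Immediate early genes, which cells switch on within minutes of a stimulus, showed a pattern of their own. Fos read 3941, 3600 and 3046 with IL-4, 1341, 1518 and 1266 with IL-4d2 and 4833, 6949 and 6129 in controls (1.35 ± 0.14, adjusted p = 0.00181). The IL-4d2 lungs were therefore the low group, at −2.09 from control (adjusted p = 2.97e-05) beside −0.75 for IL-4 (adjusted p = 0.0105). Egr1, a zinc finger factor, read 2660, 2860 and 2357 with IL-4, 1303, 701 and 899 with IL-4d2 and 4826, 9007 and 9221 in controls (1.47 ± 0.25, adjusted p = 0.0245). Leaving out each IL-4 mouse, or IL-4d2 mice 2 or 3, ended the call (1.26 to 1.54, adjusted p 0.0629 to 0.116) and with the mouse number as a block.

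Egr2, which macrophages also use in the alternative programme, read lower in controls than with IL-4: 712, 661 and 751 with IL-4, 267, 261 and 233 with IL-4d2 and 229, 499 and 333 in controls (1.43 ± 0.22, adjusted p = 0.0146). Its call did not survive leaving out any 1 of the 6 cytokine arrays (1.37 to 1.47, adjusted p 0.0512 to 0.0837), and its other probe set differed by 2.20 (adjusted p = 0.01). On that probe set every IL-4d2 lung (215.6, 140.9 and 77.5) lay below every control (308.2, 581.5 and 336.1), as for Fos and Egr1. There IL-4d2 lay −1.44 from control (limma adjusted p = 0.0767). Bhlhe40, a factor of the clock and of macrophages, is counted in the circadian clock list, not among the immediate early genes. It was the 1 gene called of 17 measured there, against 0.506% of all genes called higher. It read 2850, 2517 and 2540 with IL-4, 1598, 1327 and 1618 with IL-4d2 and 1991, 2041 and 1666 in controls (0.80 ± 0.11, adjusted p = 0.0082), and was −0.27 under poly-A scaling. Of 28 measured immediate early genes 5 rose and 0 fell (median 0.19), against 0.506% of all genes called higher. The count was 1 when IL-4 mice 1 or 2, or IL-4d2 mice 2 or 3, were left out in turn, 2 without IL-4 mouse 3, 2 without IL-4d2 mouse 1, 3 with the block and 8 with the filter on low signals. With a variance prior without trend it was 0. The CArG box, the element bound by serum response factor, was searched in the same windows and stood in 1.47% of all, 4.95% of those of higher genes and 1.45% of those of lower genes. Of the 5 windows of higher genes, 4 are of Egr2, and 3 of those overlap. The window of Egr2 at chr10:67537619-67537868 (plus strand) holds it 72 bases before the start, in capitals.
Egr2: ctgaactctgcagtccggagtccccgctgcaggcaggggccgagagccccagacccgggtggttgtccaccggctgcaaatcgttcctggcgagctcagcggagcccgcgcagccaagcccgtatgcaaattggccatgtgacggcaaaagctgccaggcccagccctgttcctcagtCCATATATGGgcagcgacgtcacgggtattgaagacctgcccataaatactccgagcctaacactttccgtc

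**Figure D3:**
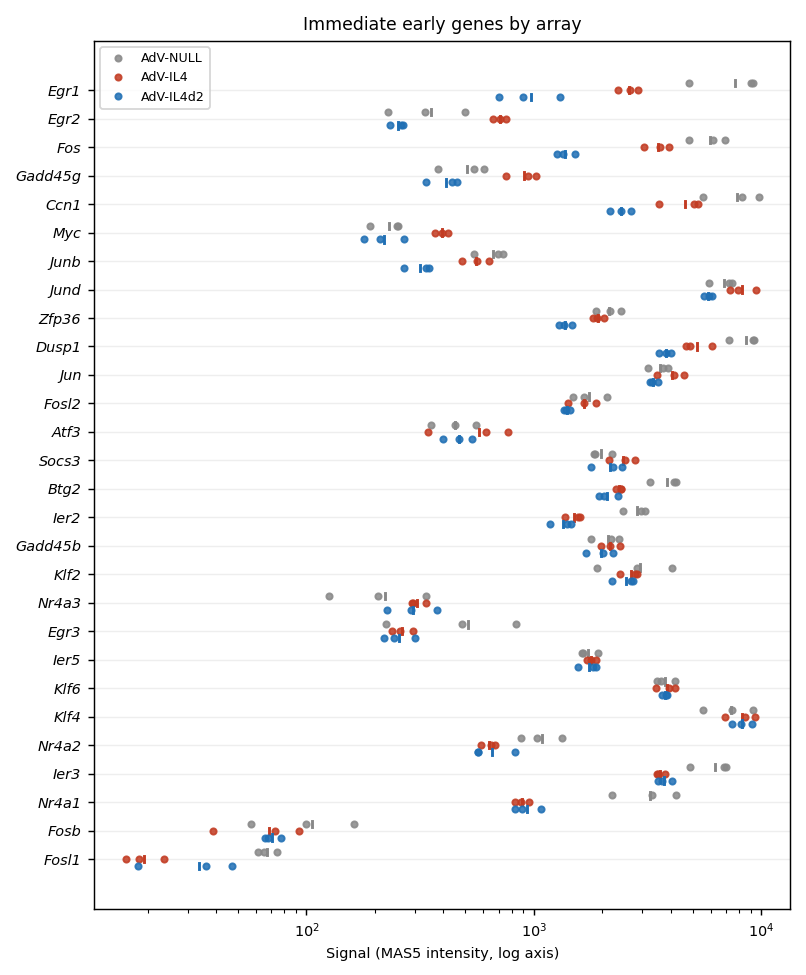
Signals of the 28 immediate early genes (x axis, MAS5 intensity, log axis), 3 points per group with a tick at the mean, ordered by the difference between the cytokine groups. Fos read 1266 to 1518 with AdV-IL4d2, 3046 to 3941 with AdV-IL4 and 4833 to 6949 with AdV-NULL.

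Plasma cell, immunoglobulin and T cell genes gave no call on the deposited scale. Jchain, the joining chain of secreted antibody, read 5903, 12490 and 12140 with IL-4 and 9134, 19090 and 7369 with IL-4d2, against 452, 588 and 372 in controls. The cytokine groups overlapped, and the difference of −0.17 had an interval from −0.92 to 0.58 (adjusted p = 0.896; −1.25 and 0.00449 under poly-A scaling). Ighm, the heavy chain of IgM, differed by −0.14 (−0.93 to 0.65) and Igha, that of IgA, by −0.58 (−1.32 to 0.16). For 14 of the 18 measured plasma cell genes the 95% interval lay within 1 log2 unit of 0, so for those a difference over 2-fold was outside it. Among 51 immunoglobulin and 17 T cell receptor probe sets 0 were called by limma, against 0.542% of all probe sets, with medians of −0.14 and −0.23. For genes the shares called were 0.506% higher and 0.363% lower. At such shares, 0 calls in groups of this size do not set these genes apart.

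The same held for interferon and T cell genes. Cxcl9, a chemokine induced by interferon gamma, read 659, 1091 and 1553 with IL-4 and 1136, 1041 and 1118 with IL-4d2, above 101, 425 and 56.7 in controls. The difference was −0.08 with a wide interval, from −1.19 to 1.03, and under poly-A scaling it was −1.14 (adjusted p = 0.0445). Of 25 measured T helper 1 and interferon gamma genes limma called 0, with 7 higher at an unadjusted p under 0.05, and 17 intervals lay within 1 log2 unit. Of 25 T cell genes 0 were called, with 2 higher and 1 lower at that p, and 15 intervals lay within 1 unit. For type I interferon genes limma called 0 of 24, with 2 lower at that p. Against 0.506% of all genes called higher and 0.363% lower, these counts of 0 do not set the lists apart. These intervals bound each gene's difference and do not show that the cytokines act alike.

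**Figure D4:**
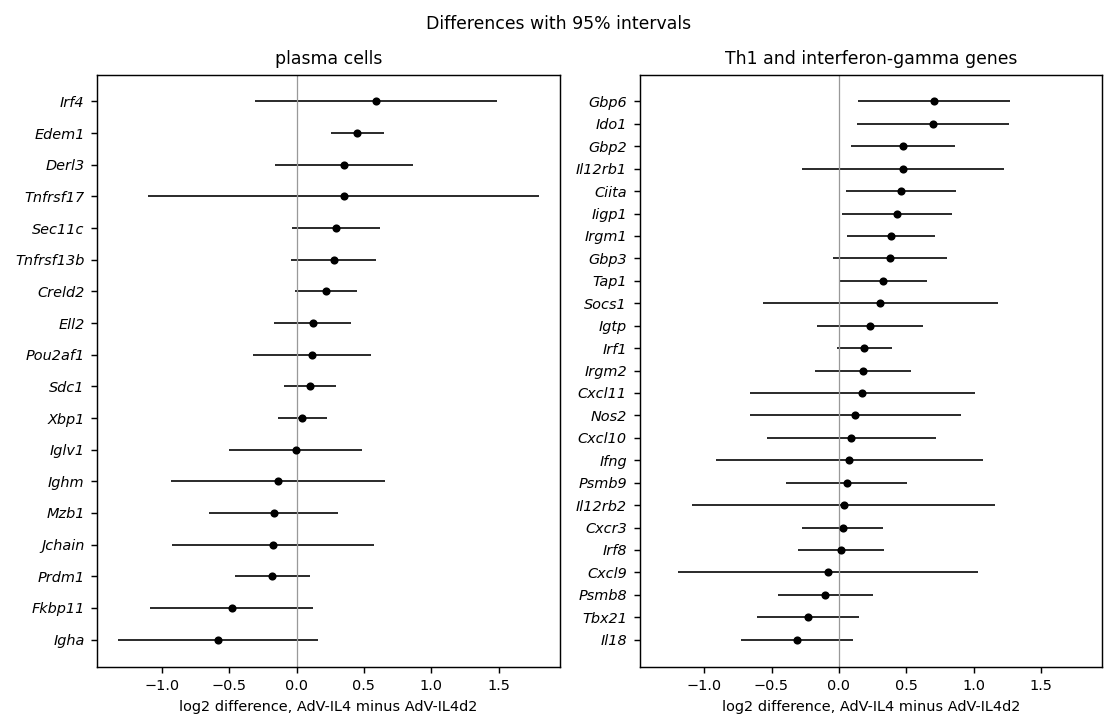
Log2 differences, AdV-IL4 minus AdV-IL4d2 (x axis), of the 18 plasma cell and 25 T helper 1 and interferon gamma genes measured, with 95% intervals of the fit as bars. In the plasma cell panel 17 intervals and in the other 18 span 0, and 14 of 18 and 17 of 25 stay within 1 unit of it.

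Heart muscle genes were the list with the lowest median, −1.23. Limma called 0 of 20 of them, against 0.363% of all genes called lower, with 11 lower at an unadjusted p under 0.05. Their summed signal ran from 2947 to 11510 on the IL-4 arrays, 9613 to 30910 on the IL-4d2 arrays and 21910 to 65470 on the control arrays. Myh6, the atrial myosin heavy chain, read 1418, 177 and 1451 with IL-4 and 5427, 1362 and 3523 with IL-4d2. The part of heart muscle in the other differences was not tested.

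**Figure D5:**
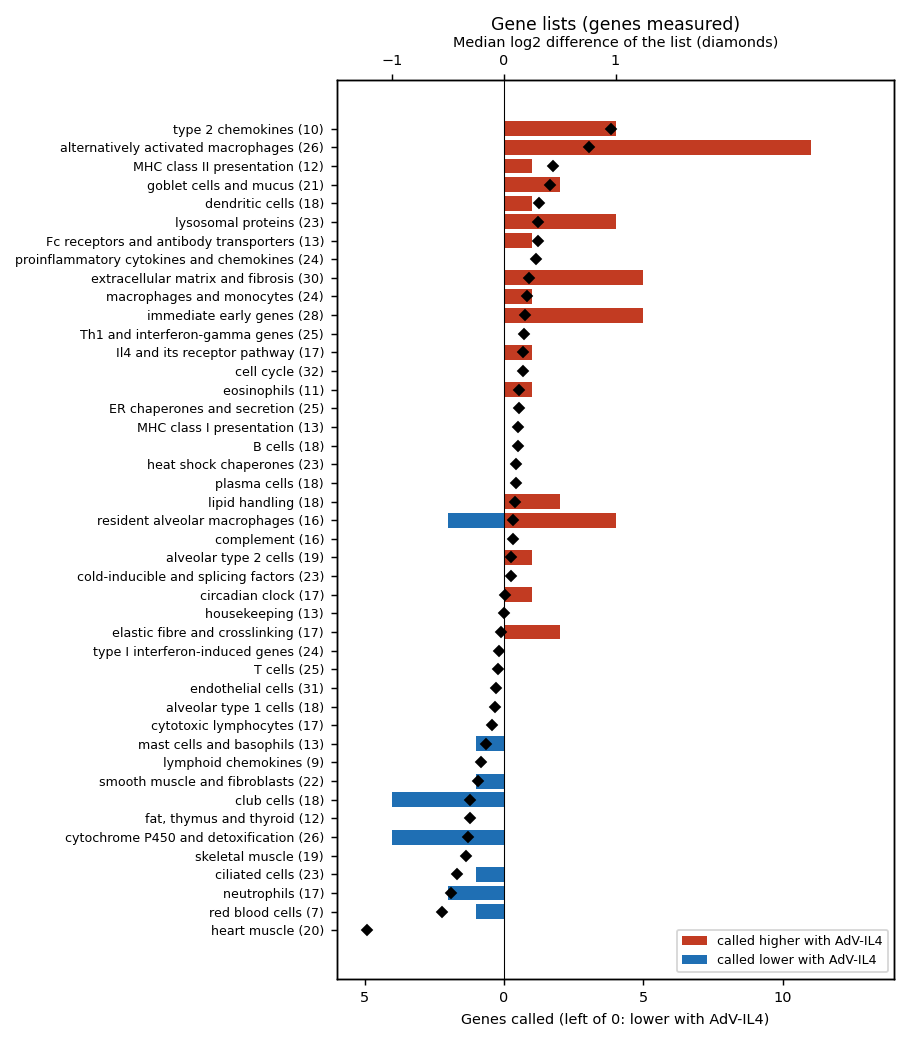
Number of genes called in each of 44 lists (bars, lower axis, higher with AdV-IL4 to the right and lower to the left) and the median log2 difference of the list (diamonds, upper axis). Alternatively activated macrophages have 11 of 26 genes called higher, and heart muscle genes have the lowest median at −1.23 with 0 called.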

How the data were processed

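The authors deposited MAS5 signal intensities for 45101 probe sets on 9 arrays. Per the submitters' processing notes, Affymetrix Expression Console 2.0, MAS5 and GCOS were used, with no role given for each. The 2% trimmed mean was 500.002 on every array, from the values. Per the labels' protocols, 200 ng of Trizol-extracted RNA was labelled. No detection calls were used here. For arrays, their number limits the precision.

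The 64 control probe sets were left out and signals taken as log2(signal + 16). All 9 arrays entered 1 fit with limma 3.58.1 (lmFit, eBayes with trend; R 4.3.3), which left 6 residual degrees of freedom. Tests were two-sided, adjusted by Benjamini-Hochberg over 45037 probe sets. Symbols came from the platform annotation: 34958 probe sets had 1 symbol, 932 several and 9211 were unnamed. The brightest probe set stood for a gene. The fit was tested on simulated data.

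Named were the 15 largest differences in each direction among called genes without overlap, up to 4 called members of each of 44 lists, or the 2 brightest, and Il4 with its receptor genes; not all are printed. Genes outside that rule were picked after their values were seen. Members and lists were chosen with earlier results of these data known. The mouse numbers did not pair the groups. Alternatives changed the pseudocount, a filter on low signals, the scaling, the arrays and the variance prior.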

Additional observations from a re-analysis of the deposited data

Results flagged for a closer look

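Control transcripts on the arrays, which measure no lung gene, gave a stronger signal on the IL-4 arrays than on the control virus arrays. The poly-A control transcripts, 24 probe sets, averaged 10.77 ± 0.37 on the log2 scale with IL-4 and 9.97 ± 0.10 with control virus (SD, n = 3 each), a difference of 0.799. They averaged 9.69 ± 0.16 with IL-4d2. The hybridisation control transcripts, 18 probe sets, differed by 0.448, at 12.63 ± 0.27 with IL-4, 12.18 ± 0.14 with control virus and 12.09 ± 0.17 with IL-4d2.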

How the results depend on the processing

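Of 244 probe sets called (138 higher, 106 lower), a filter on low signals gave 416 (217 and 199, fewer probe sets tested), hybridisation control scaling 5576 (83 and 5493) and poly-A scaling 26622 (51 and 26571). The 6 cytokine arrays alone gave 201, with 62 lower; a variance prior without trend 26 (18 and 8); leaving out control mouse 1 and IL-4 mouse 2 together 78 (51 and 27). With 1 array left out, 46 to 250 were called, 34 to 154 higher and 12 to 96 lower, and Il4 ran from −1.60 to −0.996. Pseudocounts of 1 and 64, quantile normalization and array weights gave 258, 233, 258 and 247. The difference of Il4, IL-4 against IL-4d2, was −1.77 (adjusted p = 0.0248) under hybridisation control scaling and −2.28 (adjusted p = 0.000387) under poly-A scaling. The replicate block, with mouse numbers as blocks, gave 231 calls, 136 higher and 95 lower, with Il4 at adjusted p = 0.208; the numbers did not pair the mice (correlations of −0.027 to 0.044). Under hybridisation control scaling Il13ra1 was −0.40, Jak1 −0.43, Jak3 −0.31 and Lgmn −0.083. Under poly-A scaling Il13ra1 was −0.93, Jak1 −0.97, Jak3 −0.81, Cish −0.14, Ctss −0.044, Fcgr2b −0.16, Lgals3 −0.21, Plin2 −0.39, Psap −0.11, Lgmn −0.62, Col1a1 −0.13, Mmp14 −0.36, Ltbp2 −0.41, Il33 −0.30 and Bhlhe40 −0.27. With 1 array left out, Il13ra1 ran from −0.0088 to 0.29 and Jak3 from −0.17 to 0.45. The cause of these shifts was not tested. Dim signals limit folds such as that of Rnase2a.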
